A study of Mus musculus with 7 samples.

Results

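The genes examined here were 42 textbook genes of cell division, listed by symbol, with earlier results of these data known. A probe set was taken where the platform annotation gave it exactly 1 of these symbols. On that rule 41 of the 42 genes were measured, by 94 probe sets, out of 18193 genes in the whole table. Ccnb1 had no such probe set and is not analysed here. The 41 genes were 15 genes of S phase, 24 genes of mitosis, and 2 genes that act before S phase or stop it, Ccnd1 and Cdkn1a.

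The arrays measured total RNA from wound-edge skin taken on day 5 after wounding, in mice with and without the gene Mfge8. MFG-E8, its product, is a secreted bridging protein that lets phagocytes take up apoptotic cells. The wild-type group was 3 C57BL/6 mice (animals 2, 3 and 4) with intact Mfge8. The knockout group was 4 C57BL/6 mice (animals 8, 10, 11 and 12) labelled MFG-E8 KO. All were wounded and sampled on day 5 after wounding, with no other allele or agent named. How the Mfge8 allele was made, the sex and age of the mice and the kind of wound are not given in the sources used here, and 1 array stands for 1 animal. No unwounded skin was included, so the comparison is between genotypes within healing skin.

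Each dividing cell copies its DNA once in S phase and then separates the copies in mitosis, and the genes for these steps are switched on in turn. Before S phase, cyclin D and cyclin E kinases release E2F factors, which switch on the genes for the replication machinery. Later in the cycle the MuvB complex, bound with B-Myb and then FoxM1, switches on the mitosis genes through a promoter element called the CHR, usually next to a CCAAT box bound by NF-Y. In a skin wound, keratinocytes a little behind the migrating edge, fibroblasts, endothelial cells and hair follicle cells divide during repair, and whole-tissue RNA sums over all of them. A difference in such RNA can come from fewer dividing cells or from less RNA per cell, which cannot be told apart here.

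The deposited values are log2 levels that the authors centred separately for each probe set. The constant taken off is unknown and need not be the middle of these 7 arrays. No gene's level can therefore be set against another's. Only a coarse level band (2 to 4, 4 to 8, or 8 and above on the log2 scale) could be recovered, from the rounding of the stored values. The band follows the arrays where the probe set is lowest. Of the 41 genes, 31 (75.6%) had a probe set in the top band, against 41.5% of all genes. Array medians lay between -0.0042 and 0.0121. Mfge8 itself was 0.91, 0.76 and 1.0 in the wild-type animals and -0.64, -0.96, -1.14 and -1.30 in the knockout animals, a difference of -1.90 ± 0.16 (SE) with an adjusted p of 0.00875 in the limma fit over probe sets, in the direction of the labels. Markers of skin were well expressed: 11 of 11 basal or wound-edge keratinocyte genes, 10 of 10 fibroblast genes and 9 of 9 skeletal muscle genes lay in the top level band, and 3 of 20 hair follicle genes did. Hair follicle genes varied widely between animals, so their band does not give their level in the animals where they were high. KO animals 8 and 10 stood apart in hair genes, so the S phase and mitosis medians, and the members described one by one whose differences moved most without them are also given without them.

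None of the 41 genes differed between genotypes after adjustment over all genes (limma, Benjamini-Hochberg, threshold 0.05). The smallest adjusted p was 0.533, while 5 of 18193 genes (0.0275%) passed in the same fit. In the knockout 22 of the 41 were lower and 19 higher, with a median difference of -0.017 on the log2 scale, beside 0.0038 over all genes. At an unadjusted p under 0.05, 1 member was lower and 0 were higher, where 5.94% of all genes were lower and 2.26% higher on that rule. The member was Cdt1, which was also the only one whose knockout animals all lay below the wild-type animals. That pattern held for 5.14% of all genes, and the opposite one, seen in 0 members, for 3.30%.

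The size of a difference that these 7 arrays leave possible was given by the 95% intervals. For 40 of 41 members the interval lay within 1 log2 unit (a fold of 2) on either side of 0, as it did for 90.9% of all genes. For 29 of 41 it lay within a fold of 1.5, against 70.0% of all genes. Taken by probe set, 0 of 94 passed the adjusted threshold (smallest adjusted p 0.525; 0.0444% of 45037 probe sets passed). By sign, 49 of the 94 were lower and 45 higher. At an unadjusted p under 0.05, 1 was lower and 2 were higher, where 5.22% of all probe sets were lower and 2.18% higher (7.39% in all). Groups without overlap were seen for 2 lower and 2 higher probe sets, against 4.54% and 3.23% of all probe sets.

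**Figure D1:**
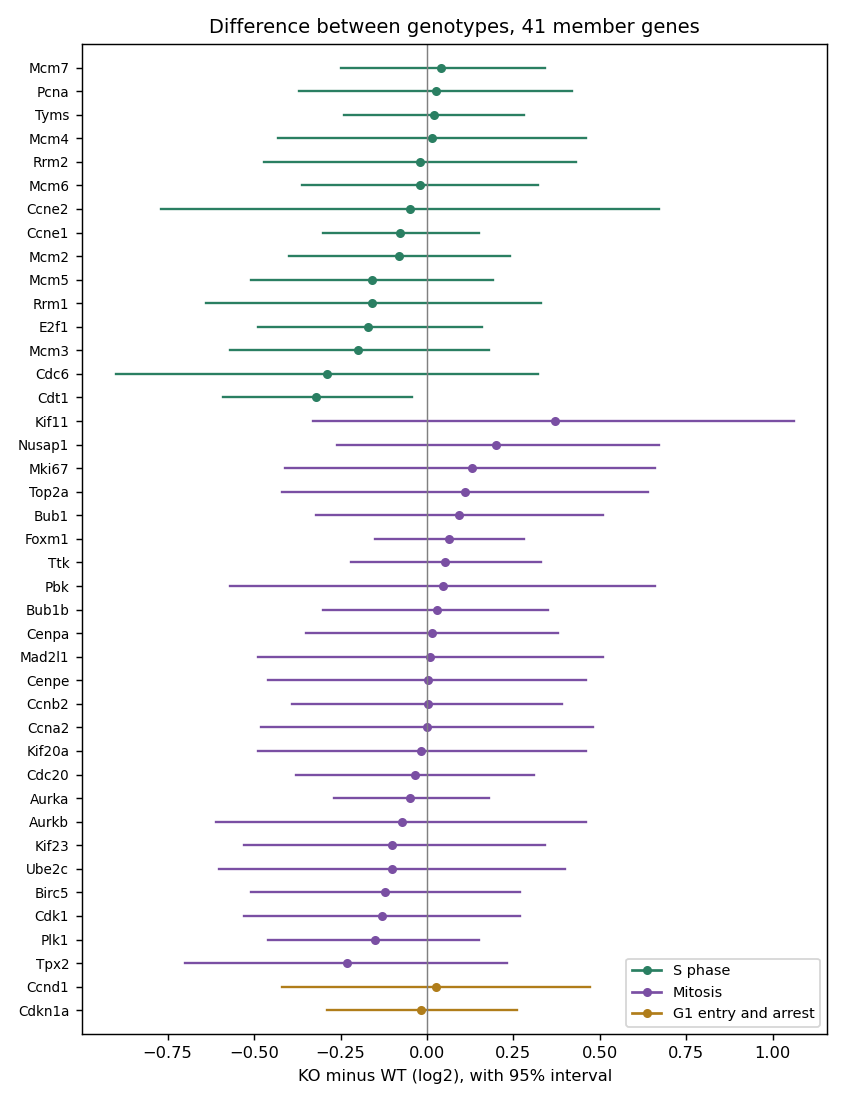
The difference between knockout and wild type (horizontal axis, log2) for each of the 41 genes, ordered by size within S phase, mitosis and the 2 G1 genes; points are limma estimates and bars 95% intervals (3 wild-type and 4 knockout animals). The interval of Cdt1, from -0.59 to -0.042, is the only one that does not cross 0, and that of Kif11 is the only one that reaches beyond 1.

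The S phase genes lay slightly lower in the knockout by count, 11 of 15 lower and 4 higher, with a median of -0.077, and 49.1% of all genes were lower. No S phase gene passed the adjusted threshold. Differences ran from -0.32 (Cdt1) to 0.041 (Mcm7), and the median depended on which animals were kept. Without KO animal 11 it was -0.0052 (8 of 15 lower), without WT animal 4 it was -0.0026, and without WT animal 2 it was -0.15 (15 of 15 lower).

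Loading of the replicative helicase came first. Cdt1, which brings the MCM helicase to origins, was 0.095, 0.10 and 0.23 in the wild-type animals and -0.15, -0.13, -0.41 and -0.011 in the knockout animals. The groups did not overlap in this mean of 2 probe sets, but the highest knockout value lay close to the lowest wild-type values. The difference was -0.32 ± 0.12 (SE; unadjusted p = 0.0288, adjusted p = 0.533, limma). The probe sets of Cdt1 did not all share it: they gave -0.27 and -0.36 in the top band and 0.034 in the lowest band, and when all its probe sets were averaged no member had an unadjusted p under 0.05. In the probe set at -0.36 the groups overlapped, with KO animal 12 at 0.0027 and WT animal 3 at -0.0027.

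Cdc6, the partner of Cdt1 in helicase loading, was 0.086, 0.21 and -0.13 in the wild type and 0.22, -0.086, -0.98 and -0.11 in the knockout. Only KO animal 11 lay below the wild-type range. The difference of -0.29 ± 0.26 (SE, adjusted p = 0.819, limma) was of the same order as its error, and it was -0.60 without KO animals 8 and 10.

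The 6 subunits of the helicase itself, Mcm2 to Mcm7, differed by -0.20 to 0.041, and 4 of 6 were lower. Their 6 genes followed each other closely from animal to animal: KO animal 11 was the lowest for 6 of 6, and WT animal 4 the highest for 5 of 6. Mcm2 was -0.16, 0.094 and 0.20 in the wild type and 0.11, 0.11, -0.27 and -0.10 in the knockout, a difference of -0.082 ± 0.14 (SE, adjusted p = 0.921, limma). Mcm3, with the lowest value of the 6 (-0.20 ± 0.16, adjusted p = 0.798), was -0.17, 0.14 and 0.18 against 0.011, -0.052, -0.52 and -0.021. As with Cdc6, a single knockout animal carried the low end. Without KO animals 8 and 10 the differences were -0.23 for Mcm2, -0.32 for Mcm3 and -0.31 for Mcm5. Mcm5 was -0.22, 0.10 and 0.16 against -0.021, 0.021, -0.46 and -0.13 (difference -0.16 ± 0.15, adjusted p = 0.827).

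Pcna, the sliding clamp that holds DNA polymerase on its template, was -0.071, 0.0051 and 0.10 in the wild type and 0.42, 0.083, -0.35 and -0.0051 in the knockout. KO animal 8 lay above all wild-type animals and KO animal 11 below them, and the difference was 0.026 ± 0.17 (SE, adjusted p = 0.983, limma), or -0.19 without KO animals 8 and 10. The nucleotide supply genes differed by -0.16 (Rrm1, the large subunit of ribonucleotide reductase), -0.02 (Rrm2, its small subunit) and 0.02 (Tyms, thymidylate synthase), none past the threshold. A probe set of Rrm1 in the lowest level band had all knockout animals below the wild type, with a difference of -0.27 and an adjusted p of 0.691 in the limma fit over probe sets.

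The 3 regulators that open S phase were all lower in the knockout by less than 0.2 log2 units, and none passed the threshold. E2f1, which switches on replication genes, was 0.069, 0.40 and -0.14 in the wild type and -0.12, -0.033, -0.14 and 0.062 in the knockout (difference -0.17 ± 0.14, adjusted p = 0.807, limma). Its wild-type values spread more widely than its knockout values. Ccne1, a cyclin E that drives entry into S phase, was 0.062, 0.031 and -0.03 against -0.17, 0.031, -0.11 and 0.03 (difference -0.077 ± 0.10, adjusted p = 0.876). Ccne2, the other cyclin E, differed by -0.05 and had the widest spread of the S phase genes, from 0.69 in KO animal 8 to -0.82 in KO animal 11.

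The 24 mitosis genes centred on no difference: 10 were lower and 14 higher, with a median of 0.0029 and a range from -0.23 (Tpx2) to 0.37 (Kif11). None passed the adjusted threshold (smallest adjusted p 0.797), and 0 had an unadjusted p under 0.05. The median turned with the animals kept. Without KO animals 8 and 10, 22 of 24 were lower and the median was -0.24, with Kif23 and Pbk at an unadjusted p under 0.05 (8.05% of all genes there) and still no adjusted call. The S phase genes were 14 of 15 lower there, with a median of -0.19. KO animals 8 and 10 had the highest means of the knockout group for both lists, so lower medians without them follow from that order. For the mitosis genes those means were 0.29 and 0.15, against -0.33 and -0.10 in KO animals 11 and 12, the only knockout animals left. Without KO animal 11 the mitosis median was 0.11, with 18 of 24 higher, and without KO animal 8 it was -0.11, with 20 of 24 lower. Without WT animal 2 it was -0.076 (18 of 24 lower), and without WT animal 4 it was 0.08 (19 of 24 higher).

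Mki67, the gene of the proliferation marker Ki-67, was -0.26, 0.077 and 0.10 in the wild type. In the knockout it was 0.60 and 0.31 in animals 8 and 10 and -0.32 and -0.19 in animals 11 and 12. The knockout group thus held both the highest and the lowest values, and the difference was 0.13 ± 0.23 (SE, 95% interval -0.41 to 0.66, adjusted p = 0.927, limma). Top2a, the topoisomerase that untangles sister chromosomes, had the same order of knockout animals, with 0.65, 0.36, -0.29 and -0.10 against -0.18, 0.077 and 0.24 (difference 0.11 ± 0.23, adjusted p = 0.94). The sign of both turned with the animals kept: without KO animals 8 and 10 the differences were -0.23 for Mki67 and -0.24 for Top2a, and without KO animal 8 alone -0.04 and -0.055.

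Among the mitotic kinases and cyclins, Cdk1, the kinase that starts mitosis, was -0.19, 0.11 and -0.017 in the wild type and 0.11, 0.017, -0.55 and -0.22 in the knockout (difference -0.13 ± 0.17, adjusted p = 0.883, limma, and -0.36 without KO animals 8 and 10). Its cyclin partners Ccna2 and Ccnb2 differed by 0.00031 and 0.0025. Plk1, a kinase of spindle assembly and cytokinesis, did not share the pattern of Mki67: it was -0.12, 0.014 and 0.27 against -0.23, 0.06, -0.20 and -0.014 (difference -0.15 ± 0.13, adjusted p = 0.812). Aurka and Aurkb, the Aurora kinases of the spindle poles and of the centromere, differed by -0.049 and -0.071. Foxm1, the factor that helps switch on mitosis genes, ran from -0.11 to 0.088 over the 7 animals as the mean of 3 probe sets. It was -0.019, -0.056 and -0.077 against -0.0092, 0.079, -0.11 and 0.088 (difference 0.063 ± 0.094, adjusted p = 0.907, limma). Those probe sets disagreed: in KO animal 11 they were 0.074, 0.25 and -0.64, and their differences were 0.11, 0.23 and -0.16.

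The spindle genes held the widest differences. Kif11, the motor that pushes spindle poles apart, was -0.50, -0.0026 and 0.26 in the wild type and 0.99, 0.40, -0.068 and -0.16 in the knockout. The groups overlapped, and KO animal 8 lay farthest above the wild-type range. The difference was 0.37 ± 0.30 (SE, 95% interval -0.33 to 1.06, adjusted p = 0.797, limma), and it was -0.037 without KO animals 8 and 10. Nusap1, a microtubule-binding spindle protein, was -0.079, -0.10 and 0.24 against 0.68, 0.33, -0.13 and 0.017 (difference 0.20 ± 0.20, adjusted p = 0.832, and -0.076 without those animals). The other motors, Kif20a and Kif23, which act in cytokinesis, differed by -0.016 and -0.10.

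Tpx2, which activates Aurora A on the spindle, was the member whose probe sets disagreed most. Its top-band probe set was -0.18, 0.036 and 0.22 in the wild type and 0.014, 0.039, -0.73 and -0.17 in the knockout (difference -0.23 ± 0.20, adjusted p = 0.811, limma gene fit, and -0.47 without KO animals 8 and 10). A pair of its dimmer probe sets, in the band from 4 to 8, had every knockout animal above every wild-type animal, with differences of 0.43 and 0.46 (unadjusted p = 0.032 and 0.0105, adjusted p = 0.613 and 0.525 in the limma fit over probe sets). In that pair KO animal 11 was the highest (0.62 and 0.64), while in the top-band probe set it was the lowest. A further probe set in the middle band gave -0.032, and none of the 4 passed the adjusted threshold. They were singled out after their values were seen.

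None of the genes of chromosome attachment and its checkpoint passed the threshold. Birc5, the survivin subunit of the chromosomal passenger complex, was -0.31, 0.093 and 0.13 in the wild type and 0.027, -0.027, -0.51 and -0.10 in the knockout (difference -0.12 ± 0.17, adjusted p = 0.899, limma, and -0.27 without KO animals 8 and 10). The centromere genes Cenpa and Cenpe differed by 0.015 and 0.0033. The checkpoint genes Bub1, Bub1b, Mad2l1 and Ttk, which hold anaphase until chromosomes are attached, differed by 0.093, 0.029, 0.0098 and 0.052. Cdc20 and Ube2c, which serve the anaphase-promoting complex that ends the checkpoint, differed by -0.035 and -0.10. Pbk, a mitotic kinase, differed by 0.045.

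The 2 genes outside S phase and mitosis gave differences smaller than their errors. Ccnd1, cyclin D1, through which growth signals start the cycle, was -0.0086, 0.10 and -0.21 in the wild type and 0.25, 0.22, -0.51 and -0.032 in the knockout (difference 0.025 ± 0.19, adjusted p = 0.986, limma, and -0.23 without KO animals 8 and 10). Cdkn1a, the p21 inhibitor that arrests the cycle and is a p53 target, was 0.15, -0.14 and -0.045 against -0.22, 0.093, 0.067 and -0.053 (difference -0.017 ± 0.12, 95% interval -0.29 to 0.26, adjusted p = 0.984). The low knockout animal differed between them: it was animal 11 for Ccnd1 and animal 8 for Cdkn1a. For Cdkn1a this rested on 1 of its 2 probe sets: KO animal 8 was -0.60 in it and 0.16, the highest animal, in the other.

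Beyond the 41 members, 131 of 135 further cell cycle genes from 4 textbook lists were measured, and 0 passed the adjusted threshold (smallest adjusted p 0.411, limma). Of these, 71 were lower and 60 higher, with a median of -0.011. At an unadjusted p under 0.05, 4 were lower and 4 higher (6.11%), below the 8.20% of all genes. Among 38 other replication genes 18 were lower and 20 higher, and 0 reached an unadjusted p under 0.05; the smallest p belonged to Pold1, the catalytic subunit of DNA polymerase delta, at -0.21, then Blm, a helicase of DNA repair, at 0.22, Pola2 at 0.15 and Clspn at -0.16.

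Among 46 other mitosis genes 29 were lower and 17 higher. Lmnb1, a lamin of the nuclear envelope, had the largest difference of them, -0.75 ± 0.24 (SE, adjusted p = 0.474, limma): it was 0.43, 0.31 and 0.29 in the wild type and 0.16, -0.15, -0.85 and -0.77 in the knockout, without overlap. Without KO animals 8 and 10 its difference was -1.15. Kifc1, a minus-end spindle motor, was -0.43 ± 0.17 (adjusted p = 0.569). By p, Tacc3 and Pttg1 followed, at -0.22 and -0.19.

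Of 31 genes of G1 control, 15 were lower and 16 higher. Cdkn2d, an inhibitor of cyclin D kinases, was 0.38, 0.14 and 0.07 in the wild type and -0.13, -0.23, -0.34 and -0.07 in the knockout (-0.39 ± 0.12, adjusted p = 0.457, limma). Its groups did not overlap, and nor did those of Tfdp2, a partner of E2F factors, at 0.31 ± 0.11 (adjusted p = 0.501; -0.017 from its most variable probe set). Ccnd3, cyclin D3, was -0.41 ± 0.19, and E2f6, a repressor of the E2F family, was -0.26 ± 0.12, neither past the threshold.

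Of the 4 textbook lists, that of p53 targets held the most genes with an unadjusted p under 0.05, 4 of 16 (25.0%, against 8.20% of all genes), 1 lower and 3 higher, and 0 after adjustment. Trp53inp1, a p53-induced nuclear protein, was -0.085, -0.35 and -0.82 in the wild type and 0.71, 0.46, 0.16 and 0.085 in the knockout, a difference of 0.77 ± 0.21 (SE, adjusted p = 0.411, limma). Btg2, an antiproliferative gene, went the other way, with 0.45, 0.30 and 0.14 against -0.17, 0.12, -0.25 and -0.31 (-0.45 ± 0.14, adjusted p = 0.454). Aen and Sesn1, a nuclease and a stress-response gene, were both 0.27 higher with every knockout animal above the wild type, and adjusted p of 0.515 and 0.564. Aen lies on chromosome 7, the chromosome of Mfge8, and an effect of the targeted allele on genes of that chromosome was not tested. The list as a whole had a median of -0.059, with 9 lower and 7 higher, so its genes shared no direction.

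What the division genes did share was their order over animals. KO animal 11 was the lowest of the 7 for 31 of the 39 S phase and mitosis genes (79.5%). Over all genes it was the lowest for 22.6% and the highest for 21.2%. In the alternative fit with array weights it had the lowest weight of the 7 arrays (0.43). KO animal 8 was the highest for 18 of 39 (46.2%, against 17.4% of all genes) and WT animal 4 for 16 of 39 (41%, against 15.4%). The mean of the S phase genes was -0.13, 0.06 and 0.12 in the wild type (mean 0.016 ± 0.13 SD, n = 3) and 0.13, 0.01, -0.40 and -0.053 in the knockout (-0.079 ± 0.23 SD, n = 4). The mean of the mitosis genes was -0.18, 0.0051 and 0.17 (-0.0033 ± 0.18 SD, n = 3) against 0.29, 0.15, -0.33 and -0.10 (0.0018 ± 0.27 SD, n = 4). For both lists the difference between the group means was smaller than the SD within either group. Within a genotype the median SD of a mitosis gene was 0.29, and that of an S phase gene 0.21, beside 0.19 for all genes.

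**Figure D2:**
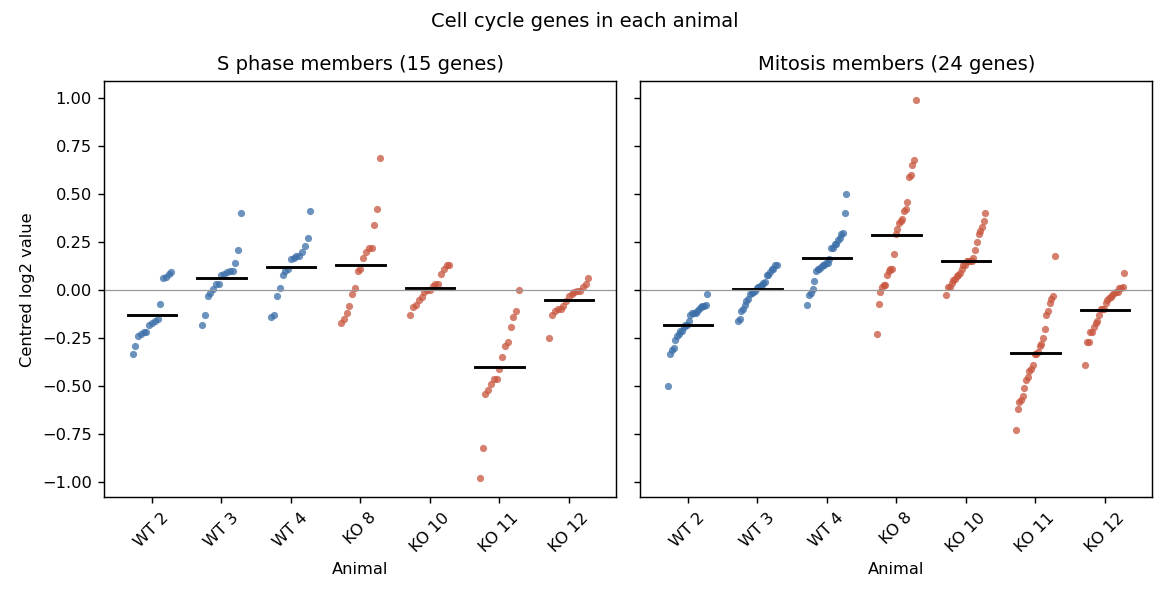
Centred log2 values (vertical axis) of the 15 S phase genes and 24 mitosis genes in each animal; each point is 1 gene, bars are means over the genes, wild type in blue and knockout in red. The bars of KO animal 11 are the lowest in both panels (-0.40 and -0.33), and those of KO animal 8 the highest (0.13 and 0.29).

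Setting the lists against each other within an animal narrowed the spread. The mean of the mitosis genes minus that of the S phase genes was -0.052, -0.055 and 0.048 in the wild type and 0.16, 0.14, 0.073 and -0.049 in the knockout. KO animals 8, 10 and 11 lay above the wild-type range and KO animal 12 within it, so the groups overlapped.

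The shared order was also described by correlation over the 7 animals, after subtracting each genotype's mean. The mean Pearson r between pairs of genes was 0.53 within S phase, 0.66 within mitosis and 0.58 between S phase and mitosis genes, beside 0.0077 over pairs of all genes. These pairs share the same 7 arrays, so the values describe these animals only. In the top level band the means were 0.68, 0.78 and 0.72, and 0.059 over pairs of all genes there. The helicase subunits Mcm2 to Mcm7 reached 0.93. Leaving out KO animal 11 lowered the S phase mean to 0.29, while the mitosis mean was 0.57. Leaving out KO animals 8 and 11 together gave 0.32 and 0.65.

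Each gene was then set against the mean of the other members. The closest followers were Mcm7 (r = 0.99), Bub1b and Ccna2 (both 0.98), which lie in different phases. In the top band 9 of 11 S phase genes and 16 of 18 mitosis genes had r over 0.8, and in the band from 4 to 8 it was 1 of 4 and 3 of 6. Plk1 (0.40), Aurka (0.39), Foxm1 (0.35), Tyms (0.19), Ttk (0.13), E2f1 (-0.10) and Ccne1 (-0.22) followed least among the S phase and mitosis genes. Of these, Aurka, Foxm1, Ttk and E2f1 are means of probe sets with opposite signs in KO animal 11. For Aurka they were -0.38 and 0.32, and for Ttk 0.47 and -0.11. Whether this lowered their r was not tested. Cdkn1a, the inhibitor, ran against the others (-0.62), and Ccnd1 with them (0.73). The Cdkn1a value is the mean of 2 probe sets that disagreed in KO animal 8 (-0.60 and 0.16).

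**Figure D3:**
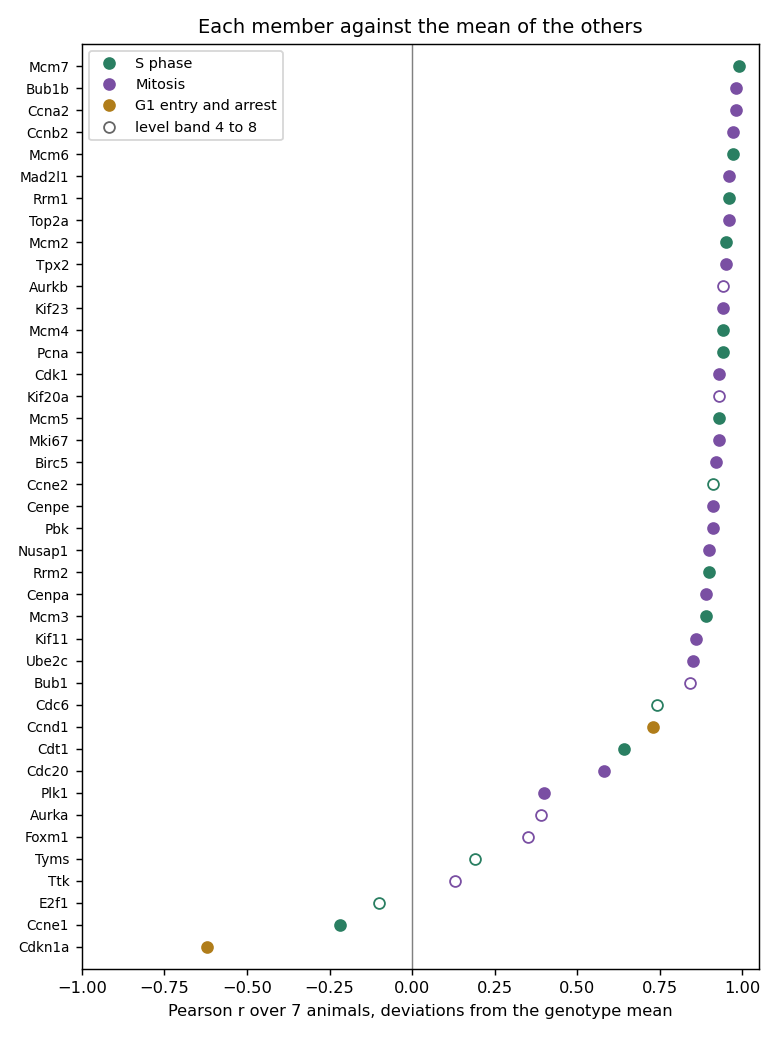
Pearson r over 7 animals (horizontal axis) between each of the 41 genes and the mean of the others, computed on deviations from the genotype mean; filled points are genes in the top level band and open points genes in the band from 4 to 8. Most genes of both phases lie above 0.8, and Cdkn1a lies lowest at -0.62.

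Genes that were not members repeated the order. Pairs of another replication gene and a member had a mean r of 0.60, and pairs of another mitosis gene and a member 0.55. The G1 control genes gave 0.28 and the p53 targets -0.0094. The mean of the other replication genes was -0.11, 0.026 and 0.072 in the wild type and 0.25, 0.071, -0.29 and -0.064 in the knockout, with KO animal 11 again lowest and KO animal 8 highest.

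Cell type markers moved over the animals as well. The mean of 20 of 21 hair follicle genes was 0.74, -1.58 and -2.61 in the wild type and 4.00, 4.04, -2.31 and -0.81 in the knockout, and that of 6 melanocyte genes 0.44, -0.27 and -1.55 against 2.55, 1.90, -1.53 and -0.89. KO animals 8 and 10 were high in both these lists and in the mitosis genes. WT animal 4, lowest for hair, was among the highest for division genes, and KO animal 11 was low for both. Pairs of a member with a hair gene had a mean r of 0.43, with a melanocyte gene 0.30, with a basal or wound-edge keratinocyte gene -0.33, with a differentiated keratinocyte gene -0.37, with a T cell gene -0.54, with a skeletal muscle gene -0.34 and with a macrophage gene 0.21. For endothelial, neutrophil and fibroblast genes it was -0.18, -0.10 and -0.017. The part of these cell types in the order of the animals was not tested.

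Several marker lists had all their measured genes on the same side. Of the hair follicle genes 20 of 20 were higher in the knockout (median difference 2.40), and of the melanocyte genes 5 of 6 (1.07), with 0 at an unadjusted p under 0.05 in either list. All 10 of 10 endothelial markers were lower in the knockout, with means of 0.14, 0.65 and 0.27 in the wild type and -0.50, -0.53, -0.23 and -0.13 in the knockout, and 0 passed the adjusted threshold (smallest adjusted p 0.163, limma). At an unadjusted p under 0.05 all 10 were lower (5.94% of all genes), and for 8 of 10 the groups did not overlap (5.14%). On that unadjusted rule 4 of 7 neutrophil, 3 of 8 macrophage, 3 of 10 fibroblast and 2 of 6 T cell markers were lower, and 0 muscle markers. Of the fibroblast markers 10 of 10 were lower (list means from -0.29 to 0.53 in the wild type and from -0.47 to -0.062 in the knockout), and of the macrophage markers 8 of 8 (-0.032 to 0.33 against -0.66 to 0.16). The neutrophil markers were lower in 7 of 7 (0.21 to 0.90 against -0.30 to 0.023), the T cell markers in 5 of 6 (0.045 to 0.34 against -0.41 to 0.10) and the muscle markers in 9 of 9 (-0.34 to 0.45 against -1.11 to 0.06). Of the basal keratinocyte markers 5 were lower and 6 higher (-0.29 to 0.22 against -0.44 to 0.29), and of the differentiated ones 4 and 6 (-0.47 to 0.019 against -0.67 to 0.42). No marker of these lists passed the adjusted threshold. By level band, 5 of 10 endothelial, 7 of 8 macrophage, 5 of 7 neutrophil and 0 of 6 T cell genes lay in the top band.

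**Figure D4:**
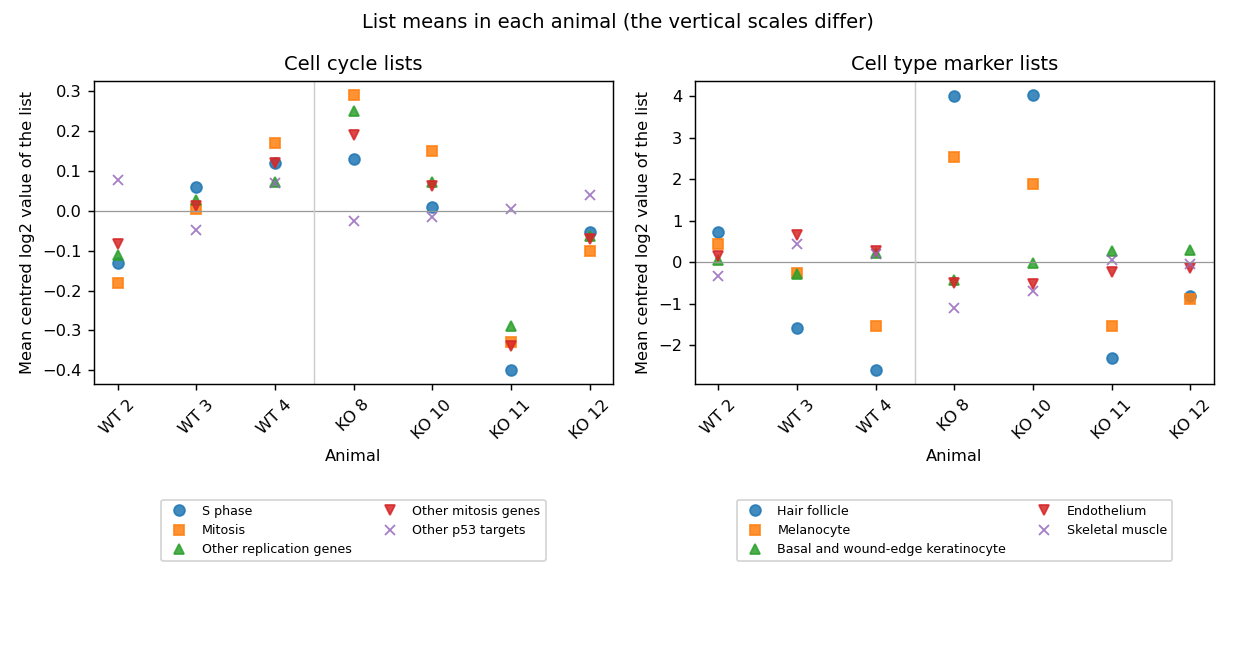
Mean centred log2 value (vertical axes, different scales) of 5 cell cycle lists (left) and 5 cell type marker lists (right) in each animal; each symbol is 1 list. Replication and mitosis lists are lowest in KO animal 11, the p53 targets stay close to 0, and the hair follicle list reaches 4.00 and 4.04 in KO animals 8 and 10.

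The promoters of the members were read from RefSeq (build GRCm38.p6), as 250 bases before to 50 after the start, for 32 of the 41 genes. Whether promoter letters bear on the shared order over animals was not tested. The letters searched, on both strands, were TTTGAA and TTCGAA for the CHR, TTTCCCGC, TTCCCGCC, TTTGGCGC and TTTCGCGC for E2F, and CCAAT for the NF-Y box; E2F matches can overlap each other. The letters did not tell the phases apart in every gene: Mcm2 and Mcm7 of S phase hold CHR letters, and Cdk1 of mitosis holds E2F letters. The 5 promoters below, 3 of mitosis and 2 of S phase, are examples. Each is given as the 250 bases before the start, on the gene's own strand, with every match to any of these motifs in capitals. They are Mki67 at chr7:135716380-135716629 (minus strand), Ccnb2 at chr9:70421555-70421804 (minus), Cdk1 at chr10:69352913-69353162 (minus), Mcm5 at chr8:75109259-75109508 (plus) and Mcm6 at chr1:128359706-128359955 (minus).
Mki67: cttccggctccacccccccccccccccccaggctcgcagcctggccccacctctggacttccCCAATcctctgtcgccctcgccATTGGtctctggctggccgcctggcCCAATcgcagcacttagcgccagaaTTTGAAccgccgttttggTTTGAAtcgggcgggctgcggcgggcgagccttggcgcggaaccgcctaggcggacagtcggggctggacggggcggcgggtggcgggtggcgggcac
Ccnb2: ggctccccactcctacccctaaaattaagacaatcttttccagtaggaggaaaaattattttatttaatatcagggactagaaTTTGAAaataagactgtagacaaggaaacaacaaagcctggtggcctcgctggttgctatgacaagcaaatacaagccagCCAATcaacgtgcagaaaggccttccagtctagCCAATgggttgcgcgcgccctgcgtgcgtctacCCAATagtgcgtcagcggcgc
Cdk1: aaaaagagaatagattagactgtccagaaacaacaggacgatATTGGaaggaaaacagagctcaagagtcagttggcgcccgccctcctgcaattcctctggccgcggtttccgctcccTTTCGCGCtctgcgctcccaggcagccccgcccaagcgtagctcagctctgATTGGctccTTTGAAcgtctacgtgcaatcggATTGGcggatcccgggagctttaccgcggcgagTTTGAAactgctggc
Mcm5: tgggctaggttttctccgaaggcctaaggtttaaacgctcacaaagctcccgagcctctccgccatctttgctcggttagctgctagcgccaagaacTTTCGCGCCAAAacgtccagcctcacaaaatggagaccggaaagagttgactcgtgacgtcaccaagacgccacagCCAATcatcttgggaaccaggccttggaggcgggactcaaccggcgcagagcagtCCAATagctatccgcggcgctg
Mcm6: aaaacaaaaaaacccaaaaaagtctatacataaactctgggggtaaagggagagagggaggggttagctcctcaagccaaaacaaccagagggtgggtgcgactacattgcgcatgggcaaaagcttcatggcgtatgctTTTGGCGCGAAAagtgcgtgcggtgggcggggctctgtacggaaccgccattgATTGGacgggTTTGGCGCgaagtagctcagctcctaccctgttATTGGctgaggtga

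The mitosis promoters of Mki67, Ccnb2 and Cdk1 each hold TTTGAA together with several CCAAT boxes (ATTGG on the other strand), and Cdk1 also holds TTTCGCGC. In Ccnb2 the TTTGAA shown begins at -167, apart from the CCAAT boxes at -87, -54 and -21. Another TTTGAA of Ccnb2 begins at base 5 after the start, outside the bases shown. The helicase promoters of Mcm5 and Mcm6 hold E2F letters that overlap on the 2 strands, and CCAAT boxes, but no CHR letters in this window. Over all members with a window, CHR letters were found in 14 of 18 mitosis genes (77.8%) and 2 of 13 S phase genes (15.4%), against 21.7% of all 27025 genes with a promoter window. E2F letters showed the reverse, with 1 of 18 mitosis genes (5.56%), 7 of 13 S phase genes (53.8%) and 4.00% of all genes. The NF-Y box was found in 15 of 18 mitosis genes (83.3%) and 8 of 13 S phase genes (61.5%), against 41.1%. CHR and NF-Y box letters were both present, at any distance within the window, in 14 of 18 mitosis genes, against 8.61% of all genes.

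The genes that were not members had similar shares. CHR letters were found in 27 of 38 other mitosis genes (71.1%) and 6 of 30 other replication genes (20%), and E2F letters in 6 of 38 (15.8%) and 14 of 30 (46.7%). A match is a run of letters and not a measured binding site.

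**Figure D5:**
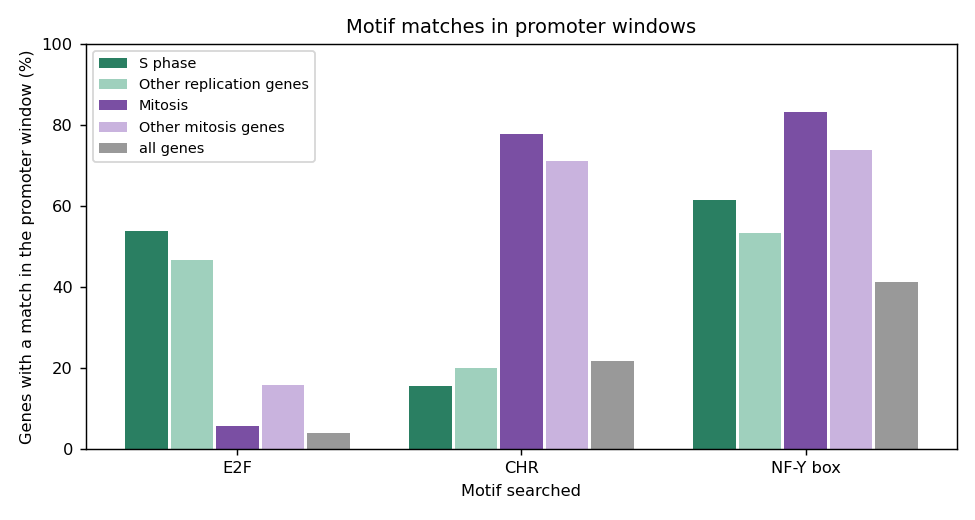
Share of genes (vertical axis, percent) with at least 1 match to the E2F, CHR or NF-Y box letters in the 300-base promoter window, for S phase and mitosis members, the other replication and mitosis genes, and all genes. E2F letters are most frequent in S phase and replication genes, and CHR letters in mitosis genes.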

How the data were processed

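Biotin-labelled total RNA of 7 wound-edge samples was hybridised to 1-colour arrays. The deposited table holds log2 values made by the authors with GCRMA, per the submitters' processing notes; the log base is taken to be 2. Per the values, 72.4% of the 45037 probe sets tested have a mirrored pair (tolerance 1e-06), as centring on a median between a pair of arrays gives, so the constant taken off each probe set is unknown. Level bands were recovered from rounding. The platform annotation gave 34945 probe sets 1 symbol, 932 several and 9160 none; 64 control probe sets, and those with several symbols (2 of members), were left out.

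A gene's value was the mean over its probe sets in its highest level band. Knockout was compared with wild type by limma 3.58.1 (R 4.3.3; two-sided, no covariates), over 18193 genes and over probe sets, with Benjamini-Hochberg adjustment over all of them; p-values measure the spread between these animals. The number of arrays limits the precision. Arrays carry no depth.

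Every member is given. Mki67, Top2a, Cdk1, Plk1, Pcna, Mcm2, Ccnd1 and Cdkn1a, the 6 S phase and 8 mitosis genes with the smallest p, and up to 4 genes of each further list were described one by one. Members, lists and tests were chosen with earlier results of these data known. Alternatives covered normalization, prior variance, array weights, level filter, probe set choice and animals left out. Promoters were scanned for exact letters only. Signal above background per array was not used here.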

Additional observations from a re-analysis of the deposited data

Results flagged for a closer look

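Mcm3, a subunit of the replicative helicase, stood out in a single animal. Its value in KO animal 11 was -0.52, and the nearest of the other knockout animals was -0.052, so the gap was 0.88 of the range of the 4 animals, above the critical value of 0.83. It was 1 of 43 groups of values tested in this way, and chance alone marks about 1 in 20 such groups. KO animal 11 was also the lowest animal for most of the other S phase and mitosis genes. Its array had the lowest weight of all arrays (0.43) in the alternative fit with array weights. No explanation was tested.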

How the results depend on the processing

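Over 17 alternative settings no member gene and none of the 94 member probe sets passed the adjusted threshold, nor did any of the 35 genes described one by one (limma). The count of all probe sets called, 20, was 13 after quantile normalization, 68 with array weights, 6 without KO animals 8 and 10, and 5 to 19 leaving out 1 animal at a time (5 without WT animal 3, 6 without KO animal 10 and 7 without WT animal 2). The count of members with an unadjusted p under 0.05, 1, was 0 with the mean of all probe sets, 2 with the probe set of largest variance (Cdt1 and Tpx2), 2 without KO animals 8 and 10, and 0 to 1 leaving out 1 animal (0 without WT animal 2, 3 or 4). The mitosis median, 0.0029, was -0.24 without KO animals 8 and 10, and -0.11 to 0.11 leaving out 1 animal; the S phase median was -0.15 to -0.0026. With array weights, which gave KO animal 10 2.89 and KO animal 11 0.43, the mitosis genes were 3 lower and 21 higher (median 0.11) and the S phase genes 7 lower and 8 higher (median 0.038). Quantile normalization gave 9 lower and 6 higher S phase genes. Among differences larger than their SE, those that turned were Kif11 (-0.037) and Nusap1 (-0.076) without KO animals 8 and 10, Pttg1 (0.029) without probe sets marked as shared, Tfdp2 (-0.017) with the probe set of largest variance, and Tpx2, at 0.16 with the mean of all probe sets and 0.43 with that of largest variance. In all, 13 of the 35 genes, 11 of the 19 members among them, changed sign in some setting; without KO animals 8 and 10, Mki67 was -0.23, Top2a -0.24, Pcna -0.19, Ccnd1 -0.23 and Cdkn1a 0.019, and Foxm1 was -0.16 with the probe set of largest variance. Mean correlations, left out 1 animal at a time after the data were seen, were 0.29 to 0.62 within S phase, 0.57 to 0.73 within mitosis and 0.41 to 0.64 between them. The causes were not tested. No paired analysis was possible because the animal numbers of the groups do not overlap.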

Other observations

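Of the 41 genes, 5 lie on chromosome 7, the chromosome of Mfge8 (Rrm1, Ccne1, Mki67, Plk1 and Ccnd1). None of them passed the adjusted threshold, and their differences in the limma gene fit, -0.16, -0.077, 0.13, -0.15 and 0.025, lay on both sides of 0. Of the further genes described one by one, Pold1 (-0.21), Blm (0.22) and Aen (0.27) also lie on chromosome 7, and none passed that threshold. Whether the targeted allele bears on these differences was not tested.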
